A study of Mus musculus with 8 samples.

Results

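The 8 genes described here carry ammonia production, ammonia excretion and glucose synthesis in the kidney. They were chosen by name from the deposited table, which held all 8 among its 23386 genes: the glutamine carrier Slc38a3, the glutamate dehydrogenase gene Glud1, the gluconeogenic enzyme genes Pck1, G6pc, Fbp1 and Pcx, and the ammonia channel genes Rhcg and Rhbg. The measurement was poly-A RNA sequencing of whole left kidneys from mice aged 49 weeks, with 1 library per kidney. The wild-type group (WT, 4 libraries) and the knockout group (KO, Ctrp1-/-, 4 libraries) were littermates from heterozygous crosses on a C57BL/6J background, backcrossed for more than 6 generations from 129S5/Sv embryonic stem cells. The knockout allele lacks 679 bases of exon 4 of C1qtnf1, the gene for the secreted protein CTRP1, among them a stretch of the 3′ untranslated region. The deletion is in the germ line, so every tissue carries it, and the labels do not give the sex of each animal.

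The proximal tubule takes up glutamine and strips it of nitrogen inside its mitochondria, which yields ammonium for the urine and a carbon skeleton. That skeleton leaves the citric acid cycle and is turned into glucose by the same cells, so that ammonia production and renal gluconeogenesis share their substrate and rise together in acidosis and fasting. Downstream, ammonia crosses the cells of the collecting duct through Rh glycoproteins and traps secreted acid in the urine.

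Levels are FPKM (reads divided by gene length and by the reads counted in the library) after division by 1 factor per library. Being per length, they can be compared roughly between genes, but differences in GC content between genes are not corrected in them. Each library held between 15027400 and 19256378 counted reads, and the 8 genes had between 422 reads (Slc38a3 in KO replicate 1) and 74460 reads (Pck1 in WT replicate 3). For the targeted gene C1qtnf1 the WT mean was 3.63 ± 0.877 scaled FPKM and the KO mean 0.325 ± 0.174 (SD, n = 4), a log2 fold change of -2.32 (SE 0.18, limma adjusted p = 0.000768). Genes rich in GC read higher in some libraries than in others. Across genes, which are not independent replicates, Spearman's rho of a library's deviation with GC was positive in WT replicates 1, 2 and 4 (0.46, 0.39 and 0.29). It was negative in WT replicate 3 (-0.24) and in every KO library (-0.39 to -0.069). WT replicate 3, the highest library for Pck1, G6pc and Glud1, also had the highest sum of 4 tubule injury markers, 22.3 against 5.13 to 12.2 in the other libraries, and the part of this in the results was not tested. The 8 genes had GC contents of 47.7% to 57.7%, above the median of 49.9% for 6 of them. Values from a fit with the trends on GC content and gene length taken out are therefore given where they move a result.

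All 8 genes had a lower mean in KO than in WT, and none of the differences passed the test over all genes (0 of 8 at a limma adjusted p under 0.05). Of the 14022 genes tested 0.0499% passed, 0.0214% lower and 0.0285% higher in KO. The log2 fold changes ran from -0.57 for Slc38a3 to -0.10 for Glud1, with a median of -0.19, where the median of all genes tested was -0.0012. 50.4% of all genes lay below 0. Without adjustment, 6 of the 8 had a limma p under 0.05, all lower in KO, against 15.4% of all genes (8.26% lower and 7.18% higher). The 8 genes were chosen with earlier results of these data known. These comparisons with all genes therefore describe the 8 and are no test of them as a set. With limma's voom on the recovered reads 0 of 8 passed, against 0.0571% of all genes. The unadjusted count of 6 became 1 once GC and length trends were taken out (G6pc, with an unadjusted limma p of 0.015 and an adjusted p of 0.341), and it was 2 to 5 when 1 library was left out. In those same fits all 8 stayed below 0. The share of all genes with an unadjusted p under 0.05 in those fits is not given here. The groups did not overlap for 1 gene, Rhbg, against 8.62% of all genes (4.28% lower and 4.34% higher). Fewer cells of a type and less RNA per cell cannot be told apart in whole kidney.

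**Figure D1:**
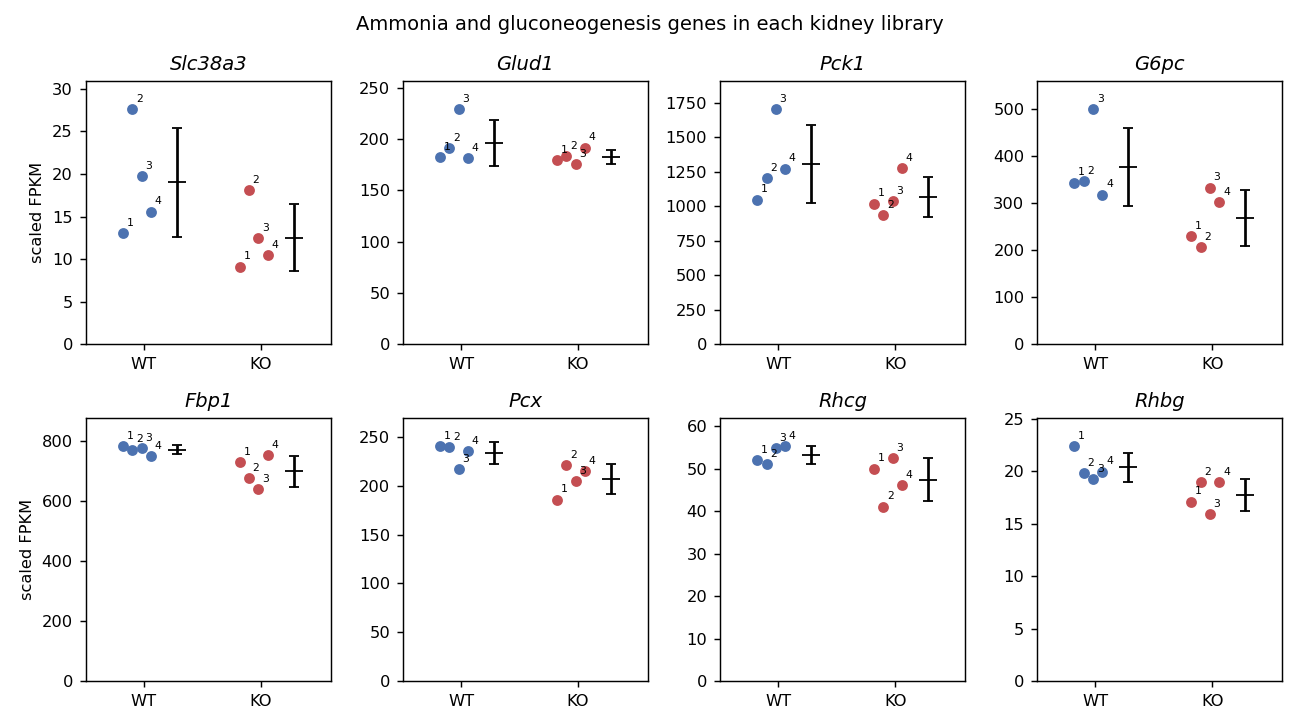
Scaled FPKM (vertical axes, linear from 0) of the 8 genes in each kidney library, with WT in blue, KO in red and the replicate number beside each point; black bars are the mean ± SD (n = 4). WT replicate 3 is the highest library for Pck1 (1702), G6pc (500) and Glud1 (229), and only for Rhbg do the groups not overlap.

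Gluconeogenic transcripts were among the most abundant in the kidney. Pck1, at a mean of 1187 scaled FPKM over the 8 libraries, was the gene of rank 25 among those tested, followed by Fbp1 (734, rank 49), G6pc (322, rank 155), Pcx (220, rank 269) and Glud1 (189, rank 341). The ammonia channels were lower, Rhcg at 50.4 and Rhbg at 19.1, and Slc38a3 stood last at 15.8. Pck1 exceeded Fbp1, and Fbp1 exceeded G6pc, in 8 of 8 libraries. Neighbouring ranges overlapped between G6pc and Pcx, between Pcx and Glud1, and between Rhbg and Slc38a3, so those orders are not fixed: G6pc was above Pcx in 7 libraries, Pcx above Glud1 in 7 and Rhbg above Slc38a3 in 6.

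Promoter stretches of the gluconeogenic genes Pck1 and G6pc are shown because cAMP, HNF1 and insulin signalling are known to act on both genes through sites of this kind. The sequences are from RefSeq on build GRCm38.p6, plus strand, 5′ to 3′, with the motif in capitals. The first 2 are from Pck1 (chr2:173152971-173153000 and chr2:173152869-173152898) and the last 2 from G6pc (chr11:101367483-101367512 and chr11:101367531-101367560).
Pck1, cAMP response element core: gcctgccccttaCGTCAgaggcgagcctcc
Pck1, HNF1 core: ctcccaacattcATTAACaaccacaagttc
G6pc, HNF1 core: cagtgtgcccaaGTTAATaattggctctgc
G6pc, insulin response core: ttttgtgtgccTGTTTTGctattttacgta

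Promoters of 300 bases were found for 6 of the 8 genes, Pck1, G6pc, Fbp1, Pcx, Glud1 and Rhcg, and both strands were searched. The cAMP core TGACG was in the promoter of 1 of the 6 genes (Pck1) and in 20.8% of all 32851 promoters. HNF1's core GTTAAT was in 2 of the 6 (Pck1 and G6pc) against 7.10% of all, and the insulin response core TGTTTTG was in 1 (G6pc) against 6.28%. The whole cAMP element TGACGTCA, which contains TGACG, was in 0 of the 6 and in 1.79% of all. These matches describe letters in the windows and not sites in use.

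Slc38a3 (chromosome 9, 107650639 to 107668968, mm10, minus strand) encodes the sodium-coupled glutamine carrier of the basolateral membrane, through which the tubule takes glutamine from blood. It measured 13.1, 27.6, 19.8 and 15.6 scaled FPKM in WT replicates 1 to 4 and 9.13, 18.1, 12.5 and 10.4 in KO replicates 1 to 4. The KO libraries spread between 9.13 and 18.1 and overlapped WT replicates 1 and 4. The mean was 34.1% lower in KO (19.0 ± 6.37 against 12.5 ± 3.94, SD, n = 4), and the log2 fold change of -0.57 (SE 0.24, 95% interval -1.12 to -0.026) did not pass (limma adjusted p = 0.306). It was -0.38 without WT replicate 2, the highest library. Slc38a3 had the largest relative spread of the 8 genes, with an SD of 33.5% of the mean in WT and 31.4% in KO.

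Glud1 (chromosome 14, 34310727 to 34345144, plus strand) encodes the mitochondrial enzyme that releases ammonium from glutamate. Its levels were 183, 191, 229 and 182 in WT and 180, 184, 176 and 192 scaled FPKM in KO. Apart from WT replicate 3 the libraries of both groups lay within 176 to 192. The log2 fold change was -0.10 (SE 0.08, 95% interval -0.27 to 0.071, limma adjusted p = 0.554), and it was -0.021 without WT replicate 3 and -0.053 with quantile normalization.

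Pck1 (chromosome 2, 173153048 to 173159273, plus strand) encodes cytosolic phosphoenolpyruvate carboxykinase, which commits oxaloacetate to glucose synthesis. It measured 1047, 1205, 1702 and 1272 scaled FPKM in WT and 1019, 936, 1038 and 1276 in KO. KO replicate 4 stood above 3 of the WT libraries, and WT replicate 1 stood beside KO replicates 1 and 3. The means were 1307 ± 280 and 1067 ± 146 (SD, n = 4), with a log2 fold change of -0.28 (SE 0.15, 95% interval -0.60 to 0.046, limma adjusted p = 0.380). Without WT replicate 3 the value was -0.14.

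G6pc (chromosome 11, 101367561 to 101377903, plus strand) encodes the catalytic subunit of glucose-6-phosphatase, the enzyme that frees glucose for release. The WT libraries held 344, 346, 500 and 318 scaled FPKM and the KO libraries 229, 206, 333 and 302. KO replicates 1 and 2 lay below all other libraries, whereas KO replicate 3 lay above WT replicate 4. The mean was 28.9% lower in KO, with a log2 fold change of -0.50 (SE 0.18, 95% interval -0.89 to -0.10, limma adjusted p = 0.246), and -0.35 without WT replicate 3. G6pc is the only one of the 8 on the chromosome of C1qtnf1, 17.1 Mb from it.

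Fbp1 (chromosome 13, 62864753 to 62888282, minus strand) encodes fructose-1,6-bisphosphatase of the gluconeogenic tissues. It measured 782, 770, 775 and 748 scaled FPKM in WT and 728, 676, 637 and 752 in KO. The WT libraries were tight, with an SD of 1.92% of the mean, and KO replicate 4 was the only KO library within their range. The log2 fold change was -0.14 (SE 0.06, 95% interval -0.28 to -0.0046, limma adjusted p = 0.311).

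Pcx (chromosome 19, 4510472 to 4621752, plus strand) encodes mitochondrial pyruvate carboxylase, which makes oxaloacetate from pyruvate. Levels were 241, 240, 218 and 236 in WT and 186, 221, 205 and 215 scaled FPKM in KO. WT replicate 3 was the lowest WT library here, and KO replicate 2 was the only KO library above it. The log2 fold change was -0.18 (SE 0.06, 95% interval -0.32 to -0.035, limma adjusted p = 0.251), and -0.11 with GC and length trends taken out. Its span holds Lrfn4 on the opposite strand, which reached 3.47 scaled FPKM at most.

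**Figure D2:**
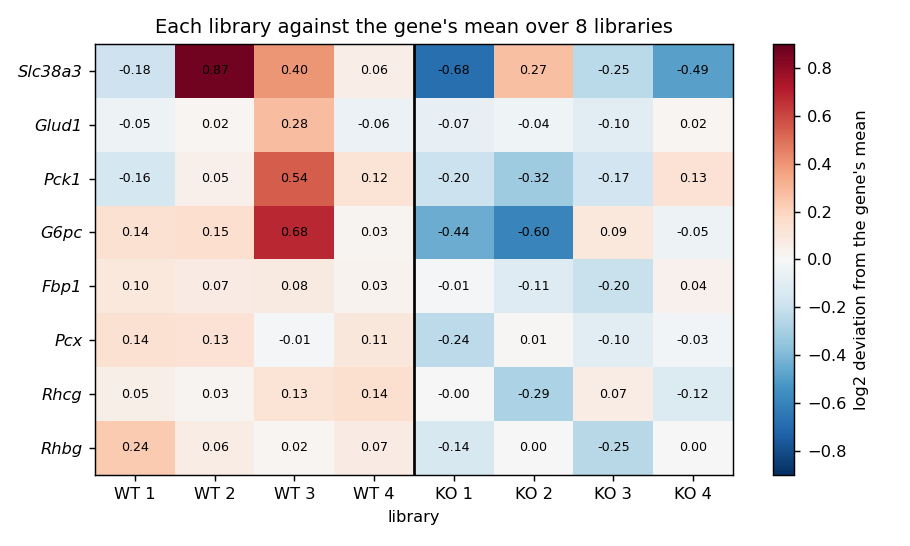
Log2 deviation of each of the 8 genes (rows) in each library (columns) from the gene's own mean over the 8 libraries; red is above the mean and blue below, and the line parts WT from KO. WT replicate 3 stands at 0.54 for Pck1 and 0.68 for G6pc but at -0.013 for Pcx, and WT replicate 2 at 0.87 for Slc38a3.

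The 8 genes did not share 1 pattern over the libraries. WT replicate 3 held the highest value of 3 genes and WT replicate 1 of 3 others, and no KO library held the highest value of any. WT replicate 2 was above the mean for 8 of 8 genes and KO replicate 1 below it for 8 of 8. KO replicate 4 was split, with 4 genes above and 4 below. Likeness was measured as the root mean square difference of log2 values standardised over the 8 libraries, where 0 is an identical pattern. Among the 8 genes, Pck1 was closest to Glud1 (0.512) and G6pc (0.598) and farther from Slc38a3 (1.16) and Pcx (1.27).

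Of all genes tested, those most like Pck1 were the NADPH oxidase gene Nox4 (0.243), Rgs2 (0.254) and Glul (0.313), which encodes glutamine synthetase, the enzyme that consumes ammonia. Glul measured 235, 298, 359 and 296 scaled FPKM in WT and 242, 223, 261 and 272 in KO. Like Pck1 it was highest in WT replicate 3 and lowest in KO replicate 2, and its log2 fold change of -0.24 (SE 0.12, limma adjusted p = 0.353) did not pass. G6pc was most like Rras (0.158), Lims2 (0.253) and Tbc1d1 (0.281). Slc38a3 was most like Mcoln2 (0.288), Lysmd1 (0.295) and Pde4d (0.299). Rhcg was most like Med19 (0.262), Naaa (0.323) and Scnn1a (0.332), a subunit gene of the epithelial sodium channel.

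Rhcg (chromosome 7, 79593363 to 79617657, minus strand) encodes the ammonia channel found on both faces of collecting duct cells. It measured 52.0, 51.2, 54.9 and 55.4 scaled FPKM in WT and 50.1, 41.1, 52.6 and 46.1 in KO. KO replicate 3 lay inside the WT range and KO replicate 2 lay well below every other library. The log2 fold change was -0.17 (SE 0.07, 95% interval -0.34 to -0.0054, limma adjusted p = 0.311). It moved to -0.11 without KO replicate 2 and to -0.10 with GC and length trends taken out.

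Rhbg (chromosome 3, 88242874 to 88287210, minus strand) encodes the basolateral relative of Rhcg. Levels were 22.4, 19.9, 19.2 and 20.0 in WT and 17.1, 19.0, 15.9 and 19.0 scaled FPKM in KO. The groups were separated by a narrow margin, since the lowest WT library stood at 19.2 and the highest KO library at 19.0. The log2 fold change was -0.20 (SE 0.07, 95% interval -0.36 to -0.031, limma adjusted p = 0.263), and with GC and length trends taken out it was -0.11 and the groups overlapped. Its span overlaps Tsacc on the same strand, which reached 2.02 scaled FPKM at most. The ratio of Rhcg to Rhbg was 2.63 ± 0.239 in WT and 2.71 ± 0.511 in KO (SD, n = 4).

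Summed markers of the cells that use these genes are given beside them, and 0 of the markers in any of these lists passed the limma test. The sum of 6 proximal tubule markers, most of it the phosphate carrier Slc34a1, was 3514 to 3798 scaled FPKM in WT and 3021 to 3249 in KO, and 5 of the 6 markers had a log2 fold change below 0. The sum of 5 markers of the straight part of that tubule was 469 to 753 in WT and 833 to 1033 in KO. Neither of these sums overlapped between the groups, and their part in the values of the 8 genes was not tested. Relative to the proximal tubule sum, an alternative chosen after seeing the data, the log2 difference of Slc38a3 was -0.38, of G6pc -0.28 and of Pck1 -0.066. Those of Glud1 (0.11), Fbp1 (0.071) and Pcx (0.034) turned to the other side of 0. These values rest mostly on Slc34a1, whose log2 fold change was -0.21. Among the other markers it was -0.21 for Slc5a2, -0.24 for Slc5a12, -0.49 for Slc22a8, -0.057 for Cubn and 0.041 for Lrp2. Values relative to single markers or to the sum of the straight part, which was higher in KO, were not computed. The sum of 8 intercalated cell markers was 169 to 185 in WT and 156 to 172 in KO, with overlap, and relative to it Rhcg stood at -0.089 and Rhbg at -0.12. Of these 8 markers 6 had a log2 fold change below 0, the lowest Slc4a9 at -0.42, and Slc4a1 (0.26) and Aqp6 (0.24) lay above 0. The sum of 5 principal cell markers was 219 to 281 in WT and 181 to 563 in KO. Values relative to that sum were not computed. Liver also makes Pck1, G6pc, Fbp1 and Pcx. The sum of 6 liver markers was 105 to 124 in WT and 104 to 137 in KO, most of it Ttr, at 67.7 to 107 over the 8 libraries. Of the 4 that were tested, Ttr had a log2 fold change of 0.14. Those of Alb (-0.26), Apoa2 (-0.31) and Serpina1a (-0.26) lay below 0. Serpina1a was at 9.56 to 19.9, Apoa1 at 0.12 to 0.582, and Cps1 had 0 reads in 7 libraries and stood at 0.0123 in KO replicate 1. The part of liver RNA in the values was not tested. Fat makes Pck1 too, and the sum of 5 fat markers was 5.67 in WT replicate 3 against 0.279 to 2.02 in the other 7 libraries; its part in the Pck1 values was not tested.

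**Figure D3:**
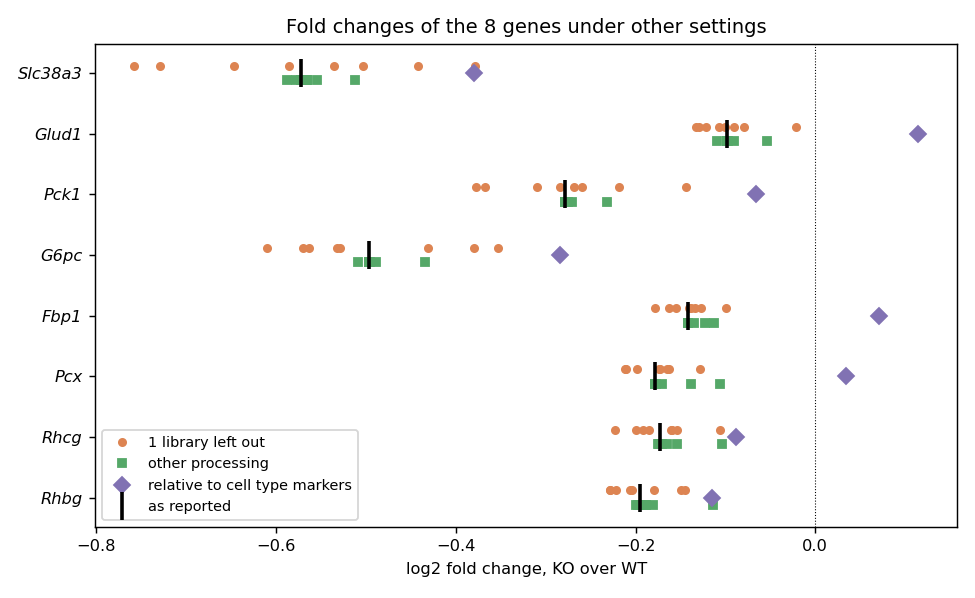
Log2 fold change, KO over WT (horizontal axis), of the 8 genes as reported (black line), with 1 library left out (orange), under other processing (green) and relative to summed markers of the cell type (violet). Orange and green points all lie below 0, and the violet points of Glud1, Fbp1 and Pcx lie above it, at 0.11, 0.071 and 0.034. For these genes the marker sum is mostly Slc34a1.

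In each of 3 pairs of isozymes, chosen by their roles, 1 gene was far above the other. Pck1 was 167 to 293 times the level of its mitochondrial counterpart Pck2, and Fbp1 was 47.9 to 80.8 times that of its neighbour Fbp2, the muscle-type enzyme. G6pc was 5.22 to 13.1 times the level of the ubiquitous G6pc3.

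**Figure D4:**
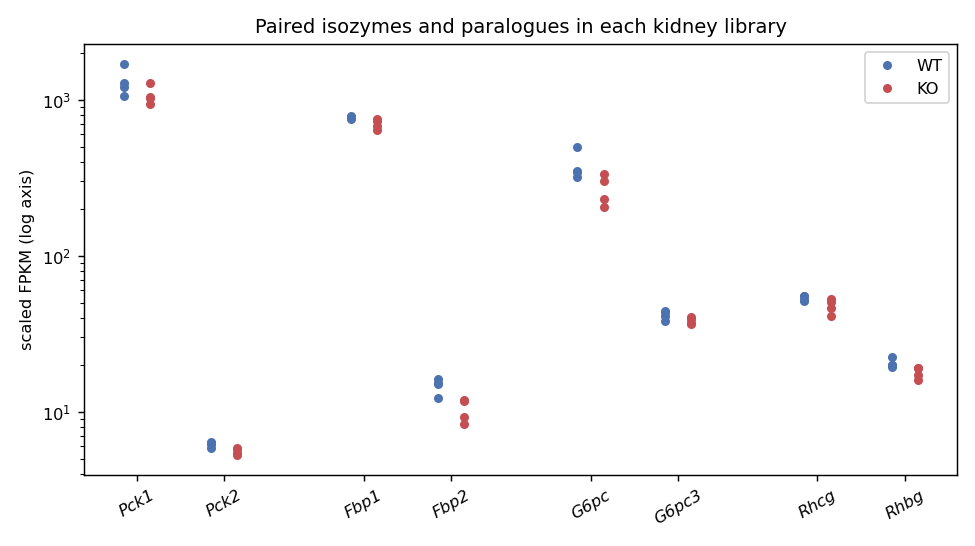
Scaled FPKM (log axis) of paired isozymes and paralogues in each library, WT in blue and KO in red. Pck1 lies between 936 and 1702 against 5.24 to 6.38 for Pck2 and Rhcg between 41.1 and 55.4 against 15.9 to 22.4 for Rhbg.

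Other genes of ammonia production were listed by role, 20 in all, of which 18 were tested. None passed (0 higher, 0 lower), 11 lay below 0, against 50.4% of all genes, and the median log2 fold change was -0.090. An unadjusted limma p under 0.05 was found for 6, 5 of them lower in KO, against 15.4% of all genes (8.26% lower). Slc7a8, a basolateral neutral amino acid exchanger, measured 73.2 ± 5.72 in WT and 59.3 ± 5.93 in KO (log2 fold change -0.30, limma adjusted p = 0.178).

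**Figure D5:**
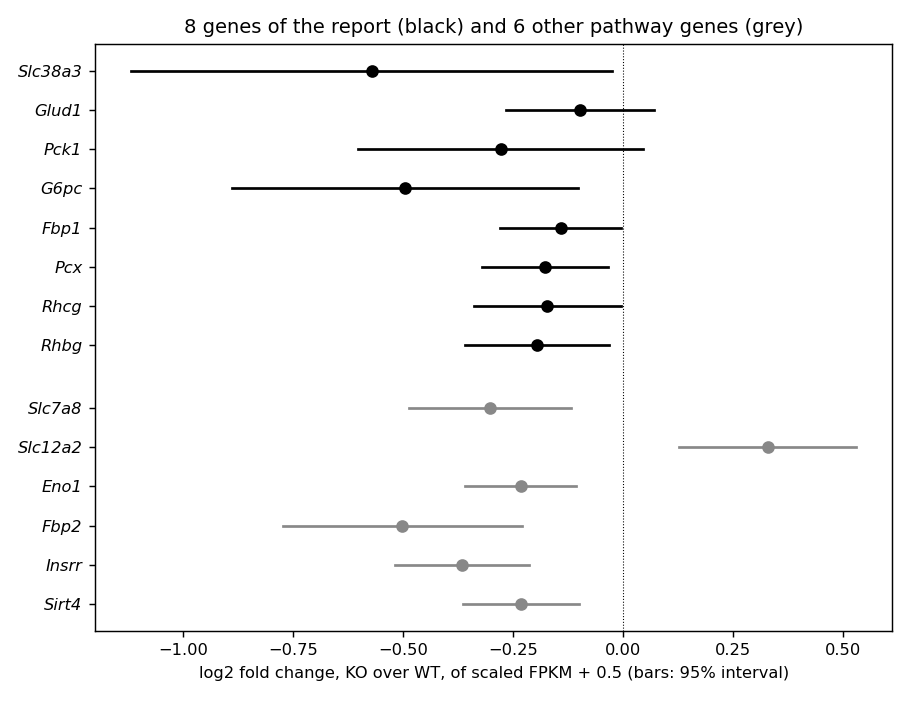
Log2 fold change, KO over WT (horizontal axis), with its 95% interval, which is not adjusted for the number of genes, of the 8 genes (black) and 6 genes of small p from 4 pathway lists (grey). The 8 genes lie between -0.57 and -0.10, and Slc12a2 (0.33) lies above 0.

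Of 25 other genes of gluconeogenesis and its substrate supply that were tested, 22 lay below 0, against 50.4% of all genes, and 0 passed in either direction. Their median was -0.12, and 8 had an unadjusted limma p under 0.05, all lower in KO, against 15.4% of all genes (8.26% lower). The list holds genes of enzymes that also serve glycolysis, among them Aldoa, Gapdh, Gpi1 and Eno1, so its counts are not particular to gluconeogenesis. Eno1, the enolase gene, measured 484 ± 30.5 and 411 ± 8.87 scaled FPKM (log2 fold change -0.23, limma adjusted p = 0.159). Near-identical copies of Eno1 can take its reads, which was not tested. Fbp2 stood at 12.3, 16.1, 15.3 and 14.9 in WT and 9.19, 8.37, 11.7 and 11.8 in KO, without overlap (log2 fold change -0.50, SE 0.12, limma adjusted p = 0.159). Of all genes tested, 4.28% were lower in KO without overlap. Fbp2 resembles Fbp1 in sequence, and whether reads of one were counted for the other was not tested.

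Of 16 other genes of ammonium and acid transport that were tested, 8 lay below and 8 above 0, with a median of -0.010 and 0 calls. An unadjusted limma p under 0.05 was found for 3, 2 of them lower in KO, against 15.4% of all genes (8.26% lower). The median was 0.031 with GC and length trends taken out. Slc12a2, a sodium, potassium and chloride cotransporter that also carries ammonium, measured 7.75 ± 0.840 in WT and 9.85 ± 0.896 in KO (log2 fold change 0.33, limma adjusted p = 0.18).

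Among 29 tested regulators of these pathways, 23 lay below 0, against 50.4% of all genes, the median was -0.13, and 0 passed. Of the 29, 7 had an unadjusted limma p under 0.05, 6 of them lower in KO, against 15.4% of all genes (8.26% lower). Insrr, a receptor that senses alkaline fluid, had the smallest p, at 8.58 ± 0.657 scaled FPKM in WT and 6.53 ± 0.357 in KO (log2 fold change -0.37, limma adjusted p = 0.108). Its highest KO library stayed below its lowest WT library, as for 4.28% of all genes tested. Sirt4, a mitochondrial sirtuin known to restrain glutamate dehydrogenase, measured 12.8 ± 0.470 and 10.8 ± 0.693 (-0.23, limma adjusted p = 0.164).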

How the data were processed

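The deposited FPKM of 8 kidney libraries were used, 4 WT and 4 KO, grouped by the labels' genotype. The labels give nothing that pairs animals, so nothing was paired, and litter was not a term of the fit. Per the submitters' processing notes the tools were CASAVA, STAR 2.5, HTSeq 0.6.1 and DESeq2, named without roles, on build mm10; the sources used here give no strand setting or annotation. Multiplied by gene length, the deposited FPKM gave whole reads for 100% of values (tolerance 0.01), and the table had 0 columns of other samples. Each library was divided by a median-ratio factor (0.978 to 1.03). Genes with a mean of at least 0.5 were kept (14022), and limma 3.58.1 (R 4.3.3, with trend) was run on log2(scaled FPKM + 0.5) with genotype as the only term; tests are two-sided, and a call needs p under 0.05 after Benjamini-Hochberg adjustment. Fold changes on that scale understate low genes. Where p-values are given they measure the spread between animals, which the labels call biological replicates. The fit was tested on simulated data.

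The 8 genes and all lists were chosen with earlier results of these data known. Genes named were the 8, C1qtnf1, the 2 of smallest p in each of 4 pathway lists and the 3 genes most like Pck1, Slc38a3, G6pc and Rhcg; isozymes were added afterwards, and 2 genes the rule names are not reported here. Alternatives were other pseudocounts, filters, scalings and limma settings, voom on recovered reads, a fit freed of GC and length trends (splines of 4 degrees of freedom, GC from GENCODE vM21 for 99.7% of tested genes, Rhbg matched by symbol), and leaving out each library. Intervals of 95% are per gene.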

Additional observations from a re-analysis of the deposited data

Results flagged for a closer look

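G6pc in WT replicate 3, at 499.8 scaled FPKM, stood far from the other 3 WT libraries: its gap to the nearest of them was 0.845 of the group's range, above Dixon's 95% critical value for 4 samples. Of 16 groups of 4 libraries looked at, 1 was marked in this way, and chance marks about 1 in 20.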

How the results depend on the processing

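Under all 18 alternatives of the fit 0 of the 8 genes passed, all 8 log2 fold changes stayed below 0, and C1qtnf1 stayed called. The number with an unadjusted limma p under 0.05 was 3 with no trend, 1 after removal of GC and length trends, and 2 to 5 with 1 library left out. The number whose groups did not overlap was 0 with unscaled FPKM, 0 after removal of GC and length trends, and 1 to 3 with 1 library left out. Leaving out a library can only keep or raise this number. The shares over all genes in these fits are not given here, so neither count can be set against the shares of the main fit. Removal of GC and length trends gave a median of -0.11 over the 8 genes. The list medians were then -0.053 for ammonia production, 0.031 for ammonium and acid transport, -0.083 for gluconeogenesis and -0.082 for regulators. Over all genes, 7 were called, and 5 to 16 with 1 library left out, the 16 without WT replicate 3. Relative to summed proximal tubule markers, mostly Slc34a1, Glud1 was at 0.11, Fbp1 at 0.071 and Pcx at 0.034. The cause was not tested. The planned count tests were not run. Of methods for counts only voom was run, on the reads recovered from the FPKM, with median-ratio factors. No paired analysis was possible because the labels give nothing that pairs animals, and litter was not modelled. Of the 8 genes Slc38a3 had the lowest count in any library, with 422 to 1542 reads, and Rhbg had 487 to 733.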
